A study of Mus musculus with 74 samples.

Results

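Esrrb, Tfcp2l1, Zfp42, Tbx3, Nr0b1, Prdm14, Nr5a2 and Zfp296 are transcription factors of the naive pluripotency network of the mouse. They were taken by gene symbol from both expression tables of the study, and all 8 were found among 20558 genes in the table of the parallel experiment and among 21241 genes in the table of the NSC-medium experiment. The study drove mouse embryonic fibroblasts (MEFs) toward neural stem cells (NSCs) or induced pluripotency with Dox-inducible lentiviral factors and measured RNA by sequencing. In the parallel experiment, Nanog-CreER/Rosa26-tdTomato/Sox2-GFP MEFs received Klf4, c-Myc and the engineered Sox17 variant eSox17FNV (KM_FNV) and stayed in N2B27 medium with Dox to day 8. They were then split into LIF/2i, a medium with LIF, the GSK3 inhibitor CHIR99021 and the MEK inhibitor PD0325901, or into NSC medium with bFGF and EGF. Dox was withdrawn after day 16, and libraries came from days 4 and 8 in N2B27 and from days 12, 16, 20 and 24 in each later medium. In the NSC-medium experiment, Sox2-GFP MEFs received 1 of 4 cocktails and Dox for 18 days: K_FNV (Klf4 and eSox17FNV), BKM_FNV (Brn4, Klf4, c-Myc and eSox17FNV), BKM_Sox17 and BKM_Sox2, which carry Sox17 or Sox2 in place of the variant. Their libraries came from days 4, 8, 12 and 18 on Dox and from days 24 and 30 after it. Primary NSCs and the induced lines iNSC_KF and iNSC_BKMF (all at passage 15) and untreated MEFs (passage 1, Sox2-GFP line) served as further groups. All cells with factors also carried the M2rtTA lentivirus. Each group had 2 libraries, except BKM_Sox17 and BKM_Sox2 at day 30 with 1 each.

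Naive pluripotency is the state of the preimplantation epiblast, and mouse embryonic stem cells hold it in LIF/2i. LIF acts through STAT3, which induces Klf4 and Tfcp2l1. GSK3 inhibition relieves the repression of Esrrb by Tcf7l1, and MEK inhibition removes the ERK signal that drives exit from the state. The members tie into the core factors Pou5f1 (Oct4), Sox2 and Nanog at different points. Esrrb, Nr5a2 (Lrh1) and Nr0b1 (Dax1) are nuclear receptors, and Nr0b1 lacks the usual DNA-binding domain and mostly represses. Tfcp2l1 is a CP2 family factor, and Tbx3 is a T-box factor that is also expressed in mesenchyme. Prdm14 represses FGF signalling and de novo DNA methyltransferases and is also a germline gene. Zfp42 (Rex1) and Zfp296 are zinc finger proteins, and Zfp42 is widely used as a marker that is lost early on exit from the naive state.

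The genes lie on 6 chromosomes of GRCm38 (GENCODE annotation). Esrrb spans chr12:86361117-86521628 on the plus strand, Tfcp2l1 chr1:118627945-118685168 (plus), Zfp42 chr8:43295063-43306980 (minus) and Tbx3 chr5:119670669-119684724 (plus). Nr0b1 spans chrX:86191764-86195947 (plus), Prdm14 chr1:13113457-13127163 (minus), Nr5a2 chr1:136842571-136960448 (minus) and Zfp296 chr7:19577287-19580656 (plus). Tbx3 overlaps the antisense gene Tbx3os1, Zfp296 overlaps Gemin7 on the other strand, and Tfcp2l1 overlaps 3 genes, 2 of them antisense. Whether reads were counted by strand is not given in the sources used here, so reads of these pairs cannot be told apart. Each value is read over all exons of a gene model.

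RefSeq promoter windows (GRCm38.p6) were at hand for 6 of the 8 members, 8 windows in all, and the 250 bases before each start were searched on both strands. The octamer ATGCAAAT (reverse complement ATTTGCAT), the site bound by Pou factors, stood in 2 of the 8 windows, against 1.6% of all 32851 windows. These were Zfp42, at positions -186 to -179 from the start, and Zfp296, at positions -111 to -104. Both are shown here because they carry the octamer, which is in capitals, and because both genes were high in LIF/2i and moved in different ways in NSC medium. The windows are chr8:43307010-43307259 on the minus strand and chr7:19577037-19577286 on the plus strand, written 5′ to 3′ along the gene.
Zfp42: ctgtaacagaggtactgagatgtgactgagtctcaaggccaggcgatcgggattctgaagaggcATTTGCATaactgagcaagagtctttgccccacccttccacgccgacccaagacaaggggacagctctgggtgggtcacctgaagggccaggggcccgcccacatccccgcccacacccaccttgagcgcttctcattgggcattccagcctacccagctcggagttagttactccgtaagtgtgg
Zfp296: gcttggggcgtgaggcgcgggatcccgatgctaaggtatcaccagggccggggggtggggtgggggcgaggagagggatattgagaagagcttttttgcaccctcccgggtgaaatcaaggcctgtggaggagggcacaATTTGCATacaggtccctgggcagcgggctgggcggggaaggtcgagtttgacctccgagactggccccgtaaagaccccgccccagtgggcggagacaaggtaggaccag
The Klf box CCACACCC was in 1 of the 8 windows, that of Zfp42, against 3.2% of all windows. The Sox motif CATTGT (10.7% of all windows), the Esrrb and Nr5a2 half-site TCAAGGTCA (0.387%) and the STAT motif TTCCNGGAA (0.913%) were in none of the 8. The Sox motif followed directly by the octamer, or by the octamer after 1 base, was in none of the 32851 windows; either form contains the Sox motif and the octamer. A match is a string of letters, not a measured binding site.

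Values are normalized tag counts as the authors deposited them, without read depth, and levels are not compared between genes or tables. Replicate libraries of a group correlated at 0.9366 to 0.9546 (log2 scale) in the parallel table and at 0.9495 to 0.9608 in the other. The exception was BKM_Sox2 day 24 replicate 1, at 0.0578, which was left out of all comparisons. Nothing in the labels tells whether the 2 libraries of a group came from separate cultures, and the p-values may therefore reflect technical spread alone. In bulk RNA, more cells that express a gene and more RNA per cell cannot be told apart. Summed neural stem cell markers were 184996 to 186296 in NSCs against 1722 to 1857 in MEFs, and summed fibroblast markers 502 to 600 in NSCs against 272832 to 274169 in MEFs (parallel table). Genes were compared on log2(value + 2) and called at a Benjamini-Hochberg adjusted p below 0.05 with a log2 change of at least 1. Only called genes are said to rise or fall, and changes are given as log2 change ± standard error.

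All 8 factors were higher in LIF/2i than in NSC medium, both on Dox and after it. On Dox (days 12 and 16) all 8 members rose, where 8.07% of the 20468 genes tested rose and 7.45% fell, with a median log2 change of 3.34 against -0.03 over all genes. After Dox (days 20 and 24) all 8 rose again, where 12.2% of genes rose and 12.3% fell, with a median of 4.83 against -0.1. At no day did a LIF/2i library overlap an NSC-medium library for any of the 8. How many of all genes are separated in this way was not counted, so this is a description only. None of these 16 calls was lost without any single library or under any other setting tried.

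**Figure D1:**
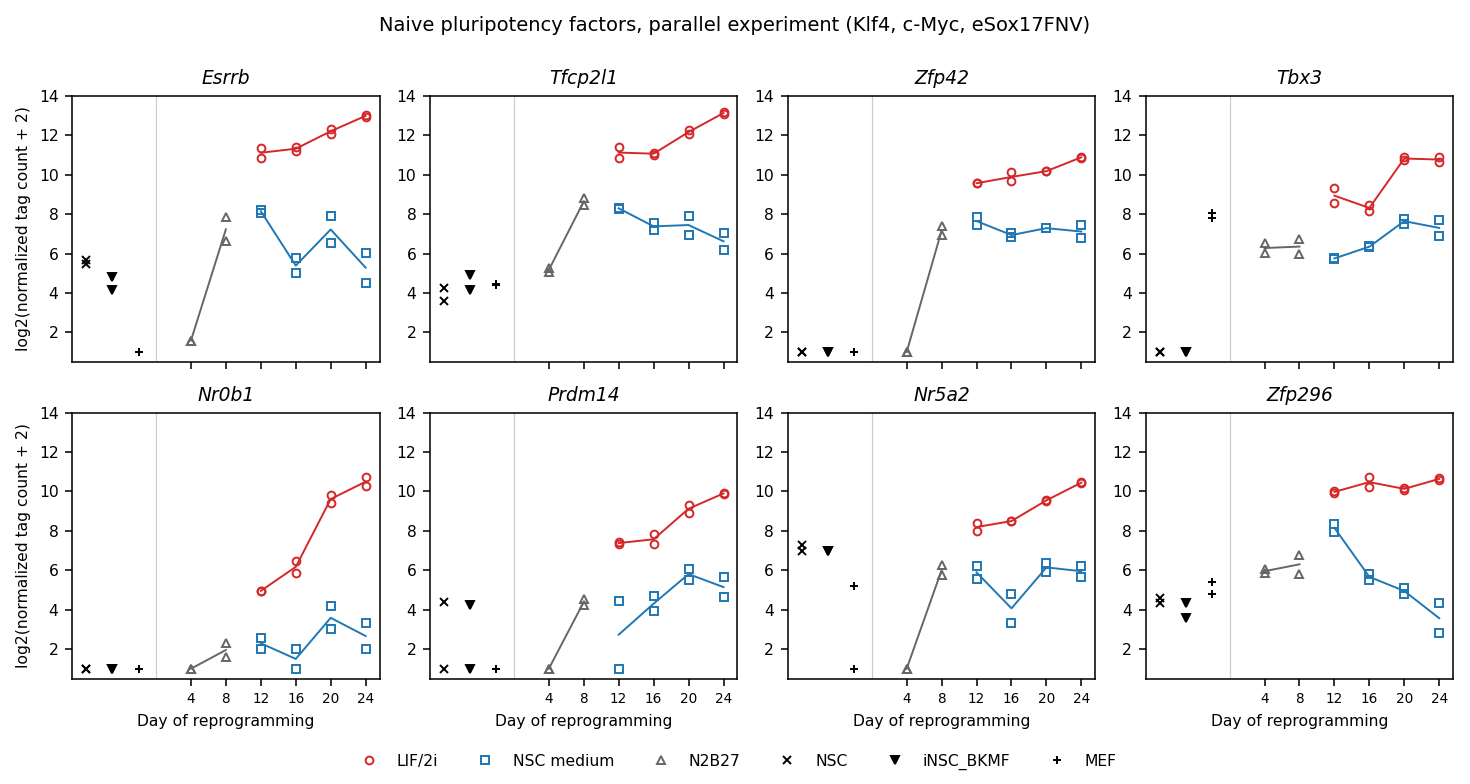
Level of each member in the parallel experiment, as log2(normalized tag count + 2), against the day of reprogramming. Each symbol is 1 library, lines join means of the log2 values of a medium, and NSC, iNSC_BKMF and MEF libraries stand left of the vertical line. The LIF/2i libraries of all 8 genes lie above the NSC-medium libraries at each shared day.

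The nuclear receptor Esrrb was at 1874 and 2628 in LIF/2i at day 12, 2389 and 2738 at day 16, 4313 and 5177 at day 20 and 7920 and 8369 at day 24. The NSC-medium libraries held 268 and 297, then 30 and 53, 91 and 238, and 21 and 64 at the same days. The LIF/2i values overlapped between days 12 and 16 and were higher at day 20 and again at day 24. Those in NSC medium moved without a steady direction. The change was 4.45 ± 0.35 on Dox (adjusted p = 1.25e-07) and 6.35 ± 0.35 after it (adjusted p = 9.25e-10). Tfcp2l1, the STAT3 target, overlapped between days 12 and 16 in LIF/2i and was higher from day 20, with 1868 and 2670, 2081 and 2213, 4359 and 4861, and 8623 and 9343 at days 12, 16, 20 and 24. In NSC medium it was at 308 and 317, 145 and 187, 123 and 242, and 71 and 131. The lowest LIF/2i value of Tfcp2l1 thus stood above every value in NSC medium, with changes of 3.26 ± 0.24 on Dox and 5.62 ± 0.24 after it (adjusted p = 5.65e-08 and 5.54e-11).

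Nr0b1, the atypical nuclear receptor, came up late. It was at 29 and 29 in LIF/2i at day 12 and 86 and 57 at day 16, then at 681 and 896 at day 20 and 1225 and 1695 at day 24. In NSC medium it stayed between 0 and 16 in all 8 libraries. Nr0b1 passed the filter for testing, a value of 10 in 2 or more libraries, only through LIF/2i, so its calls between the media are a description. The change was 3.67 ± 0.33 on Dox and 6.93 ± 0.33 after it (adjusted p = 5.65e-07 and 2.44e-10). Nr5a2, which can activate Pou5f1, was at 255 and 330, 358 and 360, 733 and 761, and 1415 and 1373 in LIF/2i at days 12 to 24. In NSC medium it was at 73 and 45, 8 and 26, 59 and 80, and 49 and 73. Its changes were 3.36 ± 0.6 on Dox and 3.95 ± 0.6 after it (adjusted p = 0.000338 and 4.34e-05).

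The zinc finger genes differed from each other. Zfp42 was at 757 and 759, 1108 and 808, 1158 and 1165, and 1851 and 1929 in LIF/2i, and in NSC medium it stayed between 107 and 227 at every day. Zfp42 was thus kept up in NSC medium, at a lower level, with changes of 2.43 ± 0.15 on Dox and 3.33 ± 0.15 after it (adjusted p = 1.08e-08 and 1.15e-10). Zfp296 was already at 1042 and 969 in LIF/2i at day 12 and stayed between 1093 and 1676 later. In NSC medium it was at 244 and 327, 54 and 44, 26 and 32, and 5 and 18 at days 12, 16, 20 and 24, lower at each later day. Its changes were 3.32 ± 0.29 on Dox and 6.13 ± 0.29 after it (adjusted p = 3.42e-07 and 1.83e-10).

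Tbx3 was at 378 and 632, 286 and 351, 1746 and 1879, and 1575 and 1936 in LIF/2i. In NSC medium it was at 51 and 53, 81 and 78, 181 and 217, and 116 and 209. MEFs themselves held 222 and 269, so the NSC-medium libraries lay below the MEFs and the LIF/2i libraries above them at all days. Its changes were 2.58 ± 0.21 on Dox and 3.32 ± 0.21 after it (adjusted p = 2.01e-07 and 4.43e-09). Prdm14 was at 160 and 169, 224 and 158, 484 and 637, and 956 and 948 in LIF/2i, against 20 and 0, 24 and 13, 44 and 66, and 23 and 48 in NSC medium. Its standard error was the largest of the 8, and its changes were 3.96 ± 0.79 on Dox and 4.04 ± 0.79 after it (adjusted p = 0.000825 and 0.000437). Without NSC medium day 12 replicate 1, listed at 20, the change on Dox was 4.82, and without replicate 2, listed at 0, it was 3.09.

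Whether the gap between the media widened after Dox was tested as an interaction. It widened for 4 of the 8 members, where 6.51% of all genes had a called positive and 7.36% a called negative difference: Nr0b1 by 3.26 ± 0.47 (adjusted p = 0.000127), Zfp296 by 2.81 ± 0.41 (adjusted p = 0.000126), Tfcp2l1 by 2.36 ± 0.33 (adjusted p = 0.000106) and Esrrb by 1.9 ± 0.49 (adjusted p = 0.0081). Zfp42 (0.9 ± 0.21, adjusted p = 0.0043) did not reach the fold required, and Tbx3 (0.75 ± 0.3), Nr5a2 (0.59 ± 0.85) and Prdm14 (0.08 ± 1.12) did not pass the test. Nr0b1 was at only 0 to 4 in NSC medium on Dox, where log2(value + 2) understates a gap. The size of its widening, and its rank above Zfp296, are therefore uncertain. The changes within each medium were as follows for the 2 genes with the largest estimates. Nr0b1 rose within LIF/2i after Dox (4.49 ± 0.33, adjusted p = 1.31e-07), while Zfp296 did not pass the test there (0.16 ± 0.29, adjusted p = 0.706) and fell within NSC medium (-2.65 ± 0.29, adjusted p = 2.06e-06).

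**Figure D2:**
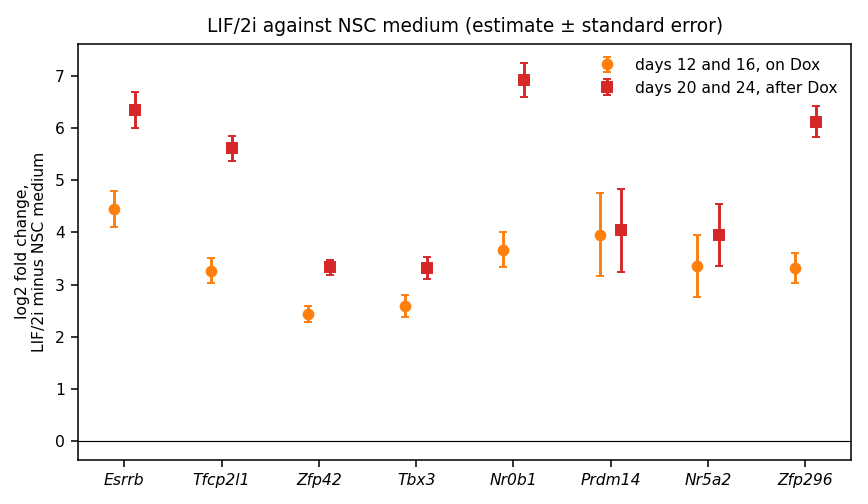
Log2 fold change of LIF/2i minus NSC medium for each member, with its standard error, on Dox (days 12 and 16, circles) and after Dox (days 20 and 24, squares). All 16 estimates are above 0, from 2.43 for Zfp42 on Dox to 6.93 for Nr0b1 after it.

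Within LIF/2i, 5 of the 8 rose after Dox relative to before, where 6.4% of genes rose and 5.16% fell: Nr0b1, Tbx3 (2.17 ± 0.21, adjusted p = 1.92e-06), Tfcp2l1 (1.55 ± 0.24), Esrrb (1.38 ± 0.35) and Nr5a2 (1.65 ± 0.6, adjusted p = 0.0398). The call of Nr5a2 was lost without any 1 of the 8 libraries, with adjusted p between 0.0597 and 0.102. Prdm14 changed by 2.04 ± 0.79 but missed the threshold (adjusted p = 0.0516). Within NSC medium, 3 members rose and 1 fell, where 11.2% of genes rose and 9.33% fell. Tbx3 rose (1.42 ± 0.21, adjusted p = 4.3e-05) and Zfp296 fell, and both kept their call without each library in turn. Nr0b1 (1.23 ± 0.33) and Prdm14 (1.96 ± 0.79, adjusted p = 0.0465) rose from values near 0. The call of Nr0b1 was lost without day 16 replicate 1, day 20 replicate 2 or day 24 replicate 2, with changes of 0.98, 0.93 and 0.9. That of Prdm14 was lost without any of 7 libraries (adjusted p of 0.0544 to 0.246) and was kept only without day 12 replicate 1, at 2.82.

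Reads of 2 delivered factors differed between the media. Reads of Sox17, which take in the delivered variant, were 12186 to 39810 in LIF/2i against 3064 to 11250 in NSC medium on Dox (1.51 ± 0.29, adjusted p = 0.000564). After Dox they were 925 and 972 in LIF/2i against 373 and 451 in NSC medium at day 20, and 130 and 174 against 177 and 319 at day 24. The days differed in opposite directions with no overlap of libraries, and their mean did not pass the test (0.28 ± 0.29, adjusted p = 0.437). Klf4, delivered and also an endogenous naive factor, averaged 6862 in LIF/2i against 3021 in NSC medium on Dox (1.25 ± 0.2, adjusted p = 0.000131) and 3685 against 760.8 after it (2.65 ± 0.2, adjusted p = 2.78e-08). The files do not separate delivered from endogenous reads, and c-Myc was not analysed here. Summed fibroblast markers were 119680 to 208756 in LIF/2i and 59947 to 140955 in NSC medium on Dox, and 183842 to 297272 in LIF/2i and 293099 to 314864 in NSC medium after it, with none of the 12 at 0 throughout. Untreated MEFs were at 272832 to 274169, within the range of LIF/2i after Dox. The LIF/2i libraries thus held much fibroblast RNA, and the part of the factor reads or the fibroblast markers in the difference was not tested.

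Other genes of the pathways, from lists, moved alongside. Among 15 core and associated pluripotency genes, 7 rose on Dox and 11 after it, with none falling, and their median changes were 1.55 and 2.38. Nanog was at 3884 in LIF/2i against 537 in NSC medium on Dox (2.94 ± 0.18) and at 12050 against 531.2 after it (4.51 ± 0.18), as means of libraries. Pou5f1 differed less, at 1.55 ± 0.32 on Dox and 2.77 ± 0.32 after it. Of 15 other naive genes 11 rose on Dox, and 10 rose and 1 fell after it, led after Dox by Sp5 (7.1 ± 0.41), Tcl1 (5 ± 0.36) and Fbxo15 (4.64 ± 0.27). Sp5 is also a Wnt target, and 10 and 9 of 11 Wnt targets rose on and after Dox, among them Axin2 (4.95 ± 0.43 and 5.58 ± 0.43). Of 12 ERK feedback genes 10 fell on Dox and 11 fell after it, where 1 rose, with Dusp4 at -4.65 ± 0.22 and -4.3 ± 0.22.

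The lists for LIF and STAT3 targets were split, with 2 of 11 higher and 2 lower on Dox and 5 higher and 3 lower after it. Klf5 rose (1.17 ± 0.1 and 3.01 ± 0.1) while Junb fell (-1.89 ± 0.23 and -2.15 ± 0.23). Of 13 genes of formative and primed pluripotency, 5 were called higher on Dox, and after it 4 were higher and 5 lower. Fgf5 was at 6.5 in LIF/2i against 115.8 in NSC medium after Dox (-3.48 ± 0.49), and Cer1 was listed at 0 in LIF/2i against a mean of 184 in NSC medium. Germline markers, which share Dppa3, Mael and Dazl with the naive list, rose in 4 of 9 in both periods, with Kit at 2.47 ± 0.18 after Dox. Of 12 fibroblast markers 1 rose and 3 fell on Dox, and 2 fell after it, and trophoblast markers rose in 1 of 10 on Dox and in 3 after it, where 1 fell. Of 12 neural stem cell markers, 4 rose on Dox, and 3 rose and 4 fell after it, among them Sox2 higher (3.06 ± 0.39) and Sox1 lower (-2.65 ± 0.44). Endoderm markers rose in 2 and fell in 3 of 7 on Dox, and rose in 1 and fell in 3 after it. Adrenal and gonad markers, set beside Nr0b1, rose in 1 and fell in 1 of 6 on Dox, and 2 fell after it, and nephron and duct markers rose in 1 of 5 on Dox and in 1 after it, where 2 fell.

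Of the 8 factors, 4 rose in N2B27 from day 4 to day 8, before the media were split. Zfp42 was listed at 165 and 121 at day 8 against 0 and 0 at day 4, and Nr5a2 at 74 and 52 against 0 and 0, and both passed the test (adjusted p = 4.68e-11 and 0.00208). Esrrb was at 228 and 96 at day 8 against 1 and 1 at day 4 (5.65 ± 0.49, adjusted p = 4.22e-06), and Tfcp2l1 at 443 and 357 against 32 and 36 (3.48 ± 0.33, adjusted p = 1.24e-05). These 4 of 8 rose, where 3% of genes rose and 1.71% fell. Without day 8 replicate 1 the change of Esrrb was 5.03, and without replicate 2 it was 6.26. Prdm14 at 17 and 21 against 0 and 0 missed the threshold (adjusted p = 0.0611), and Nr0b1 was at 3 and 1 against 0 and 0. Tbx3 and Zfp296 did not pass the test.

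At day 4 in N2B27, no member had risen over MEFs, and Tbx3 had fallen (77 against 245.5 on average, -1.66 ± 0.3, adjusted p = 0.000445), where 9.88% of genes rose and 8.54% fell. Tbx3 was at 91 and 63 at day 4 against 222 and 269 in MEFs. Those MEFs are of the Sox2-GFP line, not the line with Nanog-CreER, so line and treatment cannot be told apart here. Nr5a2 was at 0 and 0 at day 4 against 0 and 35 in MEFs, and without MEF replicate 1 it was also called lower (adjusted p = 1.51e-05). Pou5f1 was at 582 and 633 at day 4 against 0 and 0 in MEFs, so it was listed above 0 at a day when Zfp42, Nr0b1, Prdm14 and Nr5a2 were at 0 in both libraries. The other members were also above 0 at that day, Tfcp2l1 at 32 to 36, Zfp296 at 56 to 64, Tbx3 at 63 to 91 and Esrrb at 1 and 1.

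After the split, LIF/2i at day 12 stood above N2B27 at day 8 for 6 of 8 members, where 6.81% of genes rose and 7.64% fell. Esrrb changed by 3.89 ± 0.49 (adjusted p = 3.05e-05; 4.5 and 3.27 without N2B27 day 8 replicate 1 and 2), Zfp296 by 3.68 ± 0.41 and Nr0b1 by 3 ± 0.47. Tbx3 (2.58 ± 0.3), Tfcp2l1 (2.48 ± 0.33) and Zfp42 (2.41 ± 0.21) also rose, and Prdm14 (2.99 ± 1.12, adjusted p = 0.0509) and Nr5a2 (2.19 ± 0.85, adjusted p = 0.0613) missed the threshold. NSC medium at day 12 stood above N2B27 at day 8 for Zfp296 alone among the 8 (1.85 ± 0.41, adjusted p = 0.00214), where 7.43% of genes rose and 8.73% fell. Without NSC medium day 12 replicate 1, Prdm14 was called lower (adjusted p = 0.0424), its remaining day 12 library being at 0. Without N2B27 day 8 replicate 1, Esrrb was called higher (1.54, adjusted p = 0.0469) and Tbx3 lower (-1, adjusted p = 0.0306). These comparisons share the N2B27 libraries, and day and medium changed together in each.

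The cocktails in NSC medium from the start gave low values for most members. Over 53 libraries of the NSC-medium table Esrrb did not exceed 48, Prdm14 42, Nr0b1 53, Zfp296 126, Nr5a2 155 and Zfp42 163. Prdm14 was at 0 in 42 of these libraries and Zfp42 in 32. The 53 take in the NSC, iNSC_KF, iNSC_BKMF and MEF libraries, so the counts at 0 are not of cocktails alone. Tfcp2l1 reached 380 and Tbx3 1349. The highest value of Tbx3 came from K_FNV, that of Nr0b1 from BKM_Sox17, that of Nr5a2 from BKM_Sox2, and those of Esrrb, Zfp42, Prdm14 and Tfcp2l1 from BKM_FNV.

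**Figure D3:**
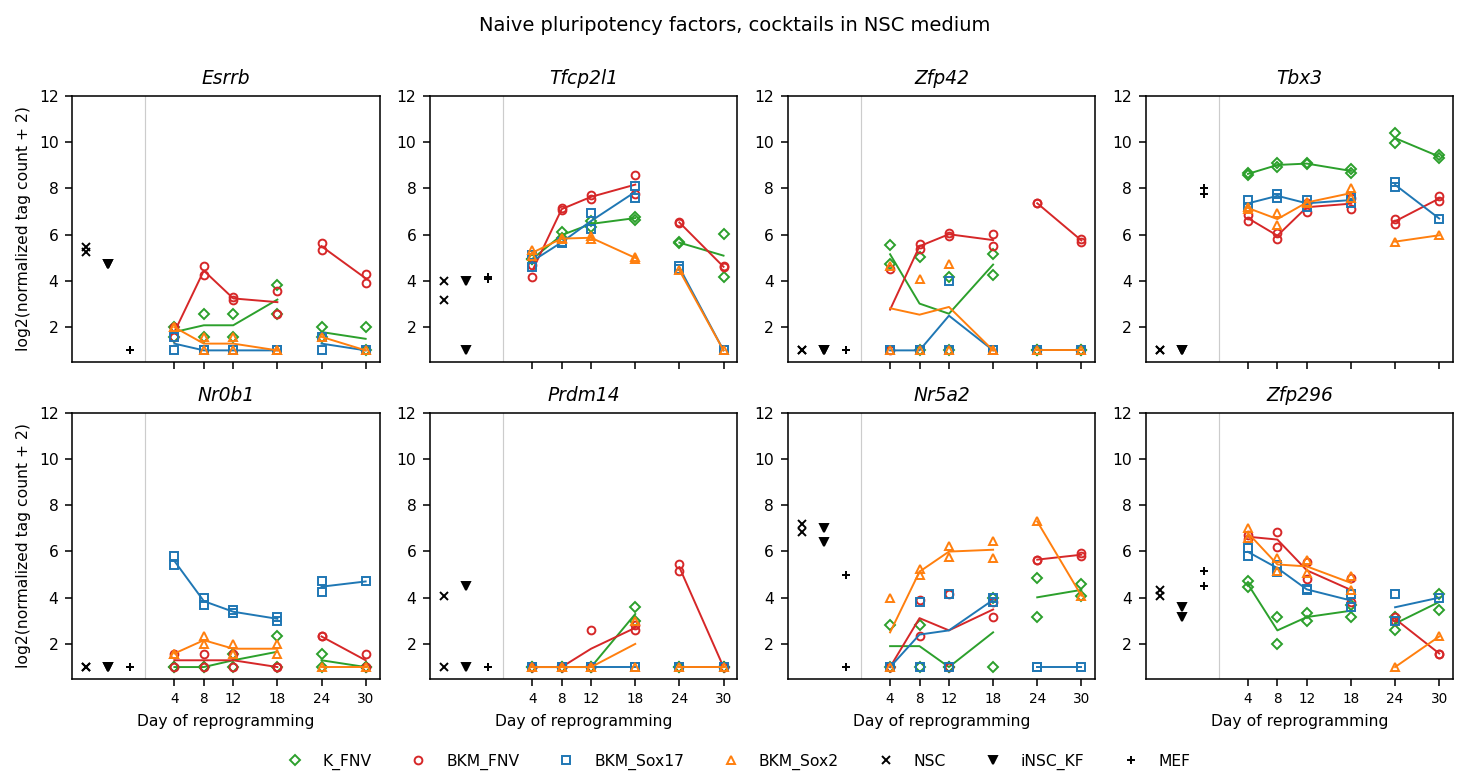
Level of each member in the 4 cocktails in NSC medium, as log2(normalized tag count + 2), against the day. Each symbol is 1 library, lines join means of the log2 values and are broken between day 18 (last day on Dox) and day 24, NSC, iNSC_KF and MEF libraries stand left of the vertical line, and BKM_Sox2 day 24 replicate 1 is left out. Tbx3 lies highest in K_FNV at every day and Nr0b1 highest in BKM_Sox17.

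On Dox (days 4 to 18), BKM_FNV exceeded BKM_Sox17 in Zfp42 and Esrrb and lay below it in Nr0b1, 3 of 8 members called, where 2.29% of 20760 genes rose and 1.43% fell. Zfp42 was at 21 and 0, 40 and 47, 66 and 60, and 43 and 64 in BKM_FNV at days 4, 8, 12 and 18. In BKM_Sox17 it was at 0 in 7 of 8 libraries and at 14 in day 12 replicate 1 (3.64 ± 0.64, adjusted p = 9.14e-05). Esrrb was at 1 and 2, 17 and 23, 8 and 7, and 4 and 10 in BKM_FNV against 0 or 1 in BKM_Sox17 (2.07 ± 0.21, adjusted p = 2.46e-08). Nr0b1 was at 0 or 1 in all 8 BKM_FNV libraries and at 53 and 40, 14 and 11, 9 and 8, and 7 and 6 in BKM_Sox17 (-2.76 ± 0.17, adjusted p = 1.36e-12). In the NSC-medium experiment Nr0b1 reached 10 only in BKM_Sox17 libraries, so it was tested only because of the cocktail where it is high. Its calls between cocktails and against MEFs, which the counts of members include, are therefore a description. All of these are low values, and with a pseudocount of 16 Esrrb (0.58) and Nr0b1 (-0.94) no longer reached the fold required. Tbx3 (-0.67 ± 0.09, adjusted p = 4.17e-06) and Zfp296 (0.79 ± 0.21, adjusted p = 0.00686) passed the p threshold but not the fold. Pou5f1 averaged 777.4 in BKM_FNV against 3.5 in BKM_Sox17 (6.09 ± 0.21), and none of 6 adrenal and gonad and none of 8 endoderm markers was called.

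Against BKM_Sox2 on Dox, BKM_FNV was higher in Zfp42 (2.7 ± 0.64, adjusted p = 0.00149), Esrrb (1.75 ± 0.21, adjusted p = 1.87e-07; 0.53 with a pseudocount of 16) and Tfcp2l1 (1.36 ± 0.28, adjusted p = 0.000313), and lower in Nr5a2 (-2.37 ± 0.6, adjusted p = 0.00264). These are 4 of 8, where 3.37% of genes rose and 2.81% fell. Tfcp2l1 was at 16 and 24, 141 and 131, 209 and 186, and 214 and 380 in BKM_FNV, against 39 and 32, 54 and 56, 54 and 59, and 29 and 31 in BKM_Sox2. BKM_FNV lay below BKM_Sox2 at day 4 and above it from day 8 on, with no overlap of libraries at any day. Nr5a2 was at 0 and 0, 3 and 13, 0 and 16, and 12 and 7 in BKM_FNV, against 0 and 14, 36 and 30, 52 and 73, and 85 and 50 in BKM_Sox2. BKM_Sox17 differed from BKM_Sox2 in the same low Nr5a2 (-2.45 ± 0.6, adjusted p = 0.00281) and in its higher Nr0b1 (2.15 ± 0.17, adjusted p = 1.73e-10; 0.84 with a pseudocount of 16), 2 of 8, where 2.12% of genes rose and 1.86% fell. Nr5a2 was also found in neural lines, at 143 and 113 in NSCs, 83 and 127 in iNSC_KF and 112 and 114 in iNSC_BKMF.

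K_FNV, without Brn4 and c-Myc, was higher than BKM_FNV in Tbx3 and lower in Zfp296 on Dox, 2 of 8 members, where 7.5% of genes rose and 6.97% fell. Tbx3 was at 406 and 383, 482 and 552, 534 and 541, and 452 and 411 in K_FNV, against 113 and 94, 66 and 55, 125 and 166, and 136 and 189 in BKM_FNV. No libraries overlapped (2.07 ± 0.09, adjusted p = 1.39e-16), and every K_FNV value was above the 213 and 261 of MEFs. Zfp296 was at 20 and 24, 7 and 2, 8 and 6, and 7 and 11 in K_FNV, against 92 and 103, 71 and 112, 45 and 26, and 12 and 27 in BKM_FNV (-2.22 ± 0.21, adjusted p = 5.74e-10). Zfp42 was at 45 and 25, 31 and 0, 0 and 16, and 17 and 34 in K_FNV and did not pass the test against BKM_FNV (-1.15 ± 0.64, adjusted p = 0.135). Esrrb (-0.85 ± 0.21, adjusted p = 0.000998) and Tfcp2l1 (-0.81 ± 0.28, adjusted p = 0.0149) passed the p threshold but not the fold. Fibroblast markers moved with this comparison: 5 of 12 rose, and the summed level was 172867 to 337529 in K_FNV against 82594 to 233470 in BKM_FNV, with none at 0 throughout. Their part in the level of Tbx3 was not tested. Of 15 core pluripotency genes 10 fell and none rose in K_FNV, Pou5f1 by -4.96 ± 0.21.

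**Figure D4:**
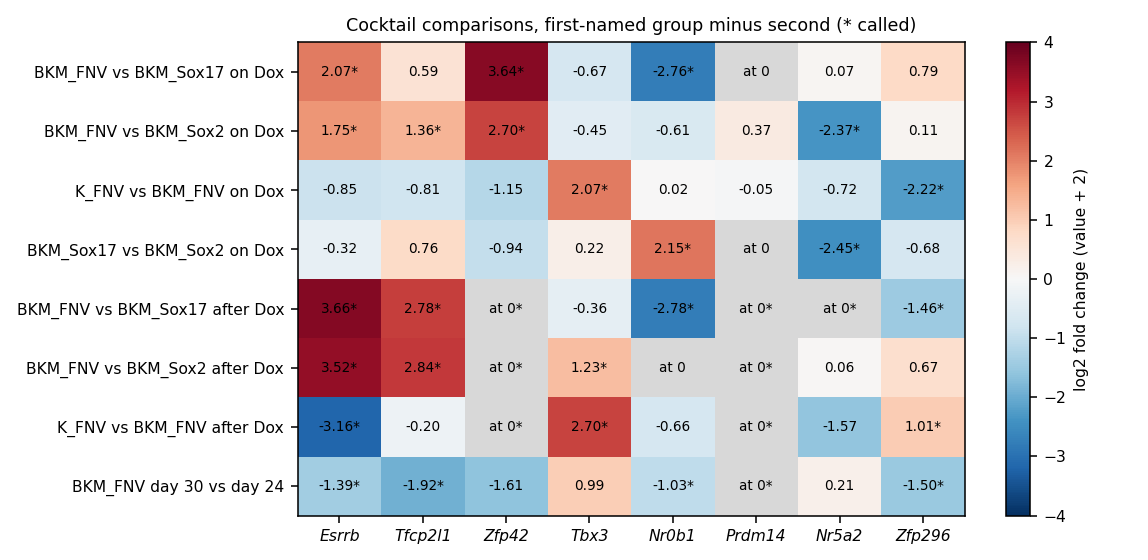
Log2 fold change (value + 2) of each member in 8 comparisons in NSC medium, the first-named group minus the second, with an asterisk where called. Red is higher in the first-named group, blue lower, and grey cells marked "at 0" have a side whose libraries are all listed at 0, so no fold is given. Tbx3 is called higher in K_FNV than in BKM_FNV on Dox and after it (2.07 and 2.7).

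Over the Dox period (day 18 against day 4), Tfcp2l1 rose in 3 cocktails and Zfp296 fell in all 4. Tfcp2l1 changed by 3.73 ± 0.55 in BKM_FNV (adjusted p = 1.79e-06), 2.99 ± 0.55 in BKM_Sox17 (adjusted p = 5.23e-05) and 1.77 ± 0.55 in K_FNV (adjusted p = 0.0154), and by -0.22 ± 0.55 in BKM_Sox2 (adjusted p = 0.827). Zfp296 changed by -2.3 ± 0.43 in BKM_FNV, -2.1 ± 0.43 in BKM_Sox17, -2.15 ± 0.43 in BKM_Sox2 and -1.14 ± 0.43 in K_FNV (adjusted p = 0.0435). Nr0b1 fell in BKM_Sox17 (-2.5 ± 0.34, adjusted p = 5.81e-07), Nr5a2 rose in BKM_Sox2 (3.57 ± 1.2, adjusted p = 0.017), Esrrb rose in BKM_FNV (1.29 ± 0.42, adjusted p = 0.0122) and in K_FNV (1.4 ± 0.42, adjusted p = 0.0115), and Prdm14 passed in K_FNV, at 6 and 10 against 0 and 0 (adjusted p = 0.044). In BKM_FNV 2 members rose and 1 fell, where 11.4% of genes rose and 11.5% fell. In BKM_Sox17 1 rose and 2 fell (9.37% and 9.67% of genes), in BKM_Sox2 1 rose and 1 fell (8.95% and 8.01%), and in K_FNV 3 rose and 1 fell (5.4% and 4.97%).

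Several of these course calls rested on single libraries. Without day 18 replicate 2 or day 4 replicate 1 in BKM_FNV, Esrrb changed by 0.79 and 1.09 and was not called. In K_FNV, Esrrb was not called without day 18 replicate 2 (0.79) or day 4 replicate 2 (1.2) and stood at 2.02 without day 18 replicate 1. Also in K_FNV, Tfcp2l1 lost its call without day 18 replicate 2 or either day 4 library (adjusted p of 0.0668 to 0.077), and Prdm14 and Zfp296 without any 1 of the 4 libraries. Nr5a2 in BKM_Sox2 was not called without day 18 replicate 1 (3.2, adjusted p = 0.0908) or day 4 replicate 1 (2.07, adjusted p = 0.276), and stood at 5.07 without day 4 replicate 2. With the doubted BKM_Sox2 library kept, 1, 2, 0 and 0 members were called in BKM_FNV, BKM_Sox17, BKM_Sox2 and K_FNV.

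The courses of BKM_FNV and BKM_Sox17 differed by the test of the difference in Nr0b1 alone among the 8 (2.21 ± 0.48, adjusted p = 0.00603), where 1.24% of genes had a called positive and 0.896% a called negative difference. Nr0b1 was at 0 and 0 at day 18 and 1 and 0 at day 4 in BKM_FNV. In BKM_Sox17 it was at 7 and 6 at day 18 against 53 and 40 at day 4. Nr0b1 could hardly fall further in BKM_FNV, so the difference restates the fall within BKM_Sox17 and tells nothing more about the BKM_FNV course. The call was lost with the doubted library kept (adjusted p = 0.0919). Relative to MEFs, the mean of the 4 cocktails at day 4 was higher in Nr0b1 (adjusted p = 9.23e-05) and in Zfp296 (1.15 ± 0.34, adjusted p = 0.00535), 2 of 8, where 9.79% of genes rose and 8.33% fell. Nr0b1 was above 1 in BKM_Sox17 only at that day, and MEFs were at 0. Zfp296 was at 92 and 103 in BKM_FNV, 54 and 69 in BKM_Sox17, 94 and 126 in BKM_Sox2 and 20 and 24 in K_FNV, against 34 and 21 in MEFs, and without MEF replicate 2 its call was lost (0.83, adjusted p = 0.152).

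After Dox (days 24 and 30), BKM_FNV was compared with each other cocktail, and Zfp42, Esrrb and Prdm14 were higher in it in all 3 comparisons. Zfp42 was at 162 and 163 at day 24 and at 50 and 54 at day 30 in BKM_FNV, and was listed at 0 in every K_FNV and BKM_Sox17 library and in both fitted BKM_Sox2 libraries of these days. Esrrb was at 48 and 39, then 13 and 18, in BKM_FNV and at 0 to 2 in the other cocktails. Against BKM_Sox17, 7 of 8 members were called in BKM_FNV, 5 higher and 2 lower, where 9.67% of genes rose and 8.15% fell. Esrrb (3.66 ± 0.33, adjusted p = 4.28e-10) and Tfcp2l1 (2.78 ± 0.44, adjusted p = 5.55e-06) rose, and so did Zfp42, Prdm14 and Nr5a2, whose BKM_Sox17 libraries were all at 0 (adjusted p = 4.18e-05, 0.00906 and 0.000125). Nr0b1 was at 3 and 3, then 1 and 0, in BKM_FNV against 17 and 24, then 24, in BKM_Sox17 (-2.78 ± 0.27, adjusted p = 1.34e-09). Zfp296 was lower (-1.46 ± 0.34, adjusted p = 0.000662), at 7 and 6, then 1 and 1, in BKM_FNV against 6 and 16, then 14, in BKM_Sox17, and its call was lost with the doubted library kept (adjusted p = 0.226).

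Against BKM_Sox2 after Dox, which rests on 1 library a day, 5 of 8 members were higher in BKM_FNV and none lower, where 8.72% of genes rose and 6.42% fell. Esrrb (3.52 ± 0.36), Tfcp2l1 (2.84 ± 0.48) and Tbx3 (1.23 ± 0.16, adjusted p = 6.03e-07) rose, as did Zfp42 and Prdm14, which were at 0 in the BKM_Sox2 libraries. Tbx3 was at 86 and 102, then 174 and 202, in BKM_FNV against 50, then 61, in BKM_Sox2. With the doubted library kept, the same 5 were called, with Tfcp2l1 at 3.71, Zfp42 at 4.49 and Tbx3 at 2.41. In that fit 6694 of all genes were called, against 3144 without the library, which correlated with its replicate at only 0.0578. The same 5 calls are therefore no further support. Nr5a2 was at 48 and 48, then 59 and 53, in BKM_FNV against 155, then 15, in BKM_Sox2, and did not pass the test (0.06 ± 1.03). Of 12 neural stem cell markers 10 rose in BKM_FNV against BKM_Sox17 and 10 against BKM_Sox2. Delivered factors were unequal in this period. Sox17 reads averaged 94.25 in BKM_FNV, against 2036 in BKM_Sox17 and 2835 in K_FNV, and their part in these differences was not tested.

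K_FNV after Dox kept the pattern seen on Dox for Tbx3, at 1349 and 990, then 696 and 632, against 86 and 102, then 174 and 202, in BKM_FNV (2.7 ± 0.13, adjusted p = 6.37e-16). It was lower in Esrrb (-3.16 ± 0.3, adjusted p = 4.03e-10), Zfp42 and Prdm14, the last 2 listed at 0 in all K_FNV libraries (adjusted p = 6.23e-06 and 0.00352). Zfp296 was barely past the fold required (1.01 ± 0.3, adjusted p = 0.00579), and its call was lost without BKM_FNV day 24 replicate 2, K_FNV day 24 replicate 2 or K_FNV day 30 replicate 1 (0.97, 0.86 and 0.83). These are 2 members higher and 3 lower, where 10.9% of genes rose and 10.8% fell. Summed fibroblast markers were 160155 to 217779 in K_FNV and 201856 to 223406 in BKM_FNV, and 2 of 12 rose and 3 fell, while 14 of 15 core pluripotency genes and 11 of 12 neural stem cell markers fell in K_FNV. The summed neural stem cell markers were 2317 to 3165 in K_FNV, with 6 of 12 at 0 in all its libraries, against 10838 to 20912 in BKM_FNV with none at 0, and their part in these results was not tested.

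Within BKM_FNV, 5 of 8 members fell between the days after Dox (day 30 against day 24), and none rose, where 6.89% of genes rose and 7.89% fell. Prdm14 was at 0 and 0 at day 30 against 42 and 34 at day 24 (adjusted p = 0.000196). Tfcp2l1 was at 23 and 22 against 89 and 92 (-1.92 ± 0.55, adjusted p = 0.00683), Esrrb at 13 and 18 against 48 and 39 (-1.39 ± 0.42, adjusted p = 0.00995), Zfp296 at 1 and 1 against 7 and 6 (-1.5 ± 0.43, adjusted p = 0.00627) and Nr0b1 at 1 and 0 against 3 and 3 (-1.03 ± 0.34, adjusted p = 0.0172). Zfp42 did not pass the test, at 50 and 54 against 162 and 163 (-1.61 ± 1.28, adjusted p = 0.349). Its wide standard error reflects the spread over all fitted groups, while the libraries of each of these days lay close together. Esrrb lost its call without day 24 replicate 1 (-1.24) or day 30 replicate 1 (-1.18), and Nr0b1 without any day 24 library (-1.03 each) or day 30 replicate 2 (-0.74). With the doubted library kept, 1 of the 8 was called. Pou5f1 fell with them, to 29 and 22 at day 30 against 1621 and 1683 at day 24 (-5.92 ± 0.42), and 10 of 15 core pluripotency genes fell, while 4 of 12 neural stem cell markers rose and 1 fell. Trophoblast markers fell in 6 of 8, and their sum was 101 to 119 at day 30 against 5564 to 5621 at day 24.

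In NSCs and both induced lines every member but Nr5a2 stayed below 50, and in MEFs every member but Tbx3 did. Tbx3 was listed at 0 in both libraries of NSCs, iNSC_KF and iNSC_BKMF, against 213 and 261 in MEFs (adjusted p = 1.85e-22). Nr5a2 was at 143 and 113 in NSCs against 0 and 30 in MEFs (4.01 ± 1.2, adjusted p = 0.005), but without MEF replicate 1 the change was 2.01 and not called (adjusted p = 0.223), and without replicate 2 it was 6.01. Esrrb was at 42 and 36 in NSCs, 25 and 25 in iNSC_KF and 13 and 21 in iNSC_BKMF, against 0 and 0 in MEFs (NSCs against MEFs, adjusted p = 4.66e-10). Zfp42 and Nr0b1 were at 0 in all of these libraries. Between NSCs and MEFs 2 of the 8 rose and 1 fell, where 17.7% of genes rose and 16.7% fell.

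Across group means, the genes most like each member were found by Pearson correlation of log2 levels, over 13 groups in the parallel table and 28 in the other, as a description of groups that share medium and day. In the parallel table Zfp42 was most like Mep1b (0.997) and Dppa5a (0.985), Tfcp2l1 like Slc30a2 (0.989), Slc28a1 (0.983) and Pecam1 (0.982), and Nr0b1 like Slc4a5 (0.985), Dmrt1 (0.985) and Mreg (0.984). Zfp296 was most like Plekhf2 (0.98), Tbx3 like Ephx2 (0.979), Nr5a2 like Phc1 (0.969), Prdm14 like Mtmr7 (0.966) and Esrrb like Fam117a (0.964). In the NSC-medium table the likest genes were others. Zfp42 was most like AU015836 (0.878) and Pou5f1 (0.854), Tbx3 like Oaf (0.962), Ndst3 (0.954) and Dkk2 (0.952), Zfp296 like Polr3a (0.907), Nr5a2 like Lrp4 (0.834) and Tfcp2l1 like Mbp (0.821). Esrrb, Nr0b1 and Prdm14 did not reach a group mean of 100 there and were not compared.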

How the data were processed

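Total RNA was enriched for mRNA with oligo(dT) beads, per the labels' protocols, and, per the submitters' processing notes, handled with Bowtie2 2.0 and RSEM on mm10. Both tables deposited by the authors hold whole-number normalized tag counts, treated here as a score, and were normalized separately. Column medians were 194 to 195 in the parallel table and 166 in the other, and column sums were 17848683 to 17866021 and 17698392 to 17710071. The columns of a table thus appear to have been brought to a common distribution, and a shift over all genes would not show. Read depth is therefore unknown, and no count test or detection limit was used. A further 4 columns, among them an ESC column in each table, fitted no labelled sample and stayed out. Levels are therefore not set beside pluripotent cells here. The NSC columns name the cell type but not the sample title and were taken as the NSC group. In each table, genes that reached 10 in 2 or more libraries (20468 and 20760) were fitted with limma 3.58.1 (R 4.3.3, trend on the mean) as log2(value + 2), with 1 mean per labelled group and without BKM_Sox2 day 24 replicate 1. The 24 contrasts, 9 in the parallel table and 15 in the other, were tested two-sided with Benjamini-Hochberg adjustment over all genes, and a multi-day contrast averages the differences within days. A fold is on the log2(value + 2) scale and understates low genes. In the main comparisons none is given where all libraries of a side were at 0, except the difference of courses for Nr0b1, where BKM_FNV day 18 was at 0. Some fits without 1 library do give one against a single library at 0. Cocktails were not compared across days 18 and 24. All 8 members are named. From each list up to 3 of the called genes with the largest changes are named. Members and lists were chosen with earlier results of these data known. The scripts were tested on simulated data. Alternatives were other pseudocounts, filters, scalings, variance models, groups, thresholds, a replicate block and leaving out each library.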

Additional observations from a re-analysis of the deposited data

Results flagged for a closer look

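Differences of effect between conditions passed the test of the difference for 5 values. The gap between LIF/2i and NSC medium was larger after Dox than on it by 1.9 for Esrrb, 2.36 for Tfcp2l1, 3.26 for Nr0b1 and 2.81 for Zfp296 (log2 scale). The change from day 4 to day 18 differed between BKM_FNV and BKM_Sox17 by 2.21 for Nr0b1. It was at 0 or 1 in BKM_FNV at both days and could hardly fall there, so this value restates its fall in BKM_Sox17. This last call was lost with a pseudocount of 1 (adjusted p = 0.0815), with only the compared groups in the fit (adjusted p = 0.0755) and with the doubted library kept (adjusted p = 0.0919).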

How the results depend on the processing

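The counts of members called in LIF/2i against NSC medium, on Dox and after it, were 8 under every alternative run. Over all 24 comparisons, 428 of 467 counts under an alternative stayed within 1.5 times the main count, and no called value of a member turned round. Of 3648 single values 3493 kept their side of the threshold, 94 lost it and 61 gained it, and 83 uncalled values changed sign. The causes of the following moves were not tested beyond what each setting does by construction. With a pseudocount of 16, counts were 1 for BKM_FNV against BKM_Sox17 on Dox, 1 for BKM_Sox17 against BKM_Sox2, 1 for the K_FNV course, 3 for BKM_FNV day 30 against day 24 and 0 for day 4 against MEF. With a filter at 50 they were 1, 1, 2, 2 and 1 for the same comparisons, 0 for the difference of courses, and after Dox 4 for BKM_FNV against BKM_Sox17, 3 against BKM_Sox2 and 3 for K_FNV against BKM_FNV. With a pseudocount of 1 the difference of courses gave 0. With only the compared groups fitted, counts were 2 for NSC medium after against on Dox, 1 for the courses of BKM_Sox2 and K_FNV and 0 for the difference of courses. With the doubted library kept they were 1 for the BKM_FNV course, 0 for those of BKM_Sox2 and K_FNV, 0 for the difference of courses, 1 for day 30 against day 24 and 1 for day 4 against MEF. Over all genes, calls with that library kept and left out were 38 and 444 for the difference of courses, 2113 and 4752, 1706 and 3953, 1470 and 3520, and 737 and 2154 for the courses of BKM_FNV, BKM_Sox17, BKM_Sox2 and K_FNV, 448 and 772 for BKM_FNV against BKM_Sox17 on Dox and 2266 and 3699 after it, 536 and 826 for BKM_Sox17 against BKM_Sox2, 6694 and 3144 for BKM_FNV against BKM_Sox2 after Dox, 1413 and 3070 for day 30 against day 24 and 2384 and 3762 for day 4 against MEF. With no minimum fold, counts on Dox were 5 for BKM_FNV against BKM_Sox17, 4 for K_FNV against BKM_FNV and 4 for BKM_Sox17 against BKM_Sox2. Without each library in turn, counts ran from 2 to 4 for NSC medium after against on Dox, 1 to 3 for NSC medium day 12 against N2B27 day 8, 1 to 2 for N2B27 day 4 against MEF, 3 to 5 for day 30 against day 24, 1 to 3 for day 4 against MEF, 0 to 3 for the K_FNV course and 1 to 2 for the BKM_Sox2 course. Groups with 1 library could not be left out and gave no value. By size-factor rescaling, the all-gene median became 0.029 instead of -0.095 for BKM_FNV against BKM_Sox2 after Dox and 0.109 instead of -0.015 for day 4 against MEF.

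Libraries of different groups that share a replicate number did not deviate together (correlations of -0.05 to 0.09 and -0.08 to 0.09, none over 0.1), so the numbers do not pair them. With the replicate number as a block, the count of members called was 8 for both LIF/2i against NSC medium comparisons, and 3 instead of 4 for NSC medium after against on Dox, where Prdm14 had an adjusted p of 0.0537. Over all genes the block gave 3170 calls against 3176 on Dox and 999 against 964 for N2B27 day 8 against day 4.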
